A study of Rattus norvegicus with 4 samples.

Results

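Neurexins, neuroligins, latrophilins and teneurins are adhesion proteins through which neurons recognise each other and build synapses. The 9 genes described here are the neurexins Nrxn2 and Nrxn3, the neuroligins Nlgn1, Nlgn2 and Nlgn3, the latrophilins Adgrl1, Adgrl2 and Adgrl3, and the teneurin Tenm4. They were chosen by gene symbol from the 18755 genes listed for each library, with earlier results of these data known. The same holds for the gene lists used below. Shares over all genes that stand beside counts of members or lists are therefore description and not a test. RNA was measured in primary cortical cells of Sprague Dawley rat embryos, taken on embryonic day 16 and grown for 24 h in Neurobasal medium with B27 supplement. The 4 hydrogels carry the names SFMA, NL-SFMA, N-SFMA and L-SFMA, and the study's question is by what mechanism cell-cell adhesion cues built into a gel promote neural growth. There was 1 library per hydrogel, taken from a group of 5 wells seeded with 100000 cells each, so differences between hydrogels cannot be set against a spread between replicate cultures and no p-value is given. The sources used here do not say what the letters stand for, nor whether the wells were pooled.

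Neurexins sit mainly in the presynaptic membrane and bind neuroligins across the cleft, while cytoplasmic scaffolds tie each side to the release machinery or to receptors. Latrophilins are adhesion G protein-coupled receptors, first known as receptors of the spider toxin alpha-latrotoxin, and bind teneurins and FLRT proteins on the facing cell. In the embryonic cortex the same molecules also serve axon growth and the migration of young neurons, before most synapses exist.

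Summed read counts lay between 14172205 and 17553098, with 16399 to 17156 genes detected. The NL-SFMA library stood apart, with 5.89% of its reads on mitochondrially encoded genes against 2.23% to 2.68% in the others. The median gene model length, weighted by reads, was 2851 bases with SFMA, 3278 with N-SFMA, 3438 with L-SFMA and 3626 with NL-SFMA. The neuronal marker list (12 of 12 genes found) summed to 2780 FPKM with SFMA, 3760 with N-SFMA, 3040 with L-SFMA and 2950 on NL-SFMA, and none of its genes was at 0 in any library. Its median log2 difference from SFMA was 0.45 with N-SFMA, 0.48 with L-SFMA and 0.56 with NL-SFMA. Over all tested genes, those with at least 1 FPKM in some library, it was -0.02, 0.05 and -0.10. At least 2-fold higher were 2, 2 and 4 of the neuronal markers, where 0.855%, 3.32% and 10.1% of all tested genes were. For 8 excitatory neuron markers the medians were 0.39, 0.66 and 0.51 in the same order. FPKM is the read count scaled by gene model length and library total. Markers of other cells moved with the hydrogels. The radial glia list (10 genes) summed to 1560 FPKM on SFMA and to between 694 and 772 on the others, and the erythroid list (7 genes) to 560 on SFMA and to between 73.2 and 166 on the others. The microglial list (9 genes) summed to 53.8 FPKM on SFMA and 12.7 on NL-SFMA, where C1qa, C1qc and Trem2 were at 0, and the interneuron list (9 genes) to 370 and 135. The astrocyte list (8 genes) ran from 124 to 62.7 FPKM and the oligodendrocyte lineage list (7 genes) from 16.2 to 8.47. Endothelial and pericyte genes (7 found) summed to at most 1.49 FPKM and meningeal fibroblast genes (6) to at most 2.93. The part of these shifts, of the mitochondrial share and of read-weighted length in the results that follow was not tested, and in bulk RNA fewer cells of a type and less RNA per cell cannot be told apart.

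The 3 neuroligins are close relatives that differed in level and in pattern over the libraries. The DNA before their starts is shown for reference, and whether it has a part in these differences was not tested. RefSeq promoter sequences (build GRCr8) were matched by symbol for 5 of the 9 members. The 250 bases before the annotated start of 1 transcript are given 5′ to 3′ on the gene's strand, for Nlgn1 (minus strand, chr2:110930677-110930926), Nlgn2 (minus strand, chr10:55056579-55056828) and Nlgn3 (plus strand, chrX:70469228-70469477). Capitals mark each E-box (CANNTG, the motif of basic helix-loop-helix factors) and each GC box (GGGCGG or its reverse complement CCGCCC, the motif of Sp1).
Nlgn1: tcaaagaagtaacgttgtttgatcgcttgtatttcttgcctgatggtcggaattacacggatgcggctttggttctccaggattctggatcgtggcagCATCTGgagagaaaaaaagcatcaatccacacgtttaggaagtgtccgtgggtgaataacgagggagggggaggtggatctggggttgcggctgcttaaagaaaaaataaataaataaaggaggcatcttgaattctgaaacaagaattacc
Nlgn2: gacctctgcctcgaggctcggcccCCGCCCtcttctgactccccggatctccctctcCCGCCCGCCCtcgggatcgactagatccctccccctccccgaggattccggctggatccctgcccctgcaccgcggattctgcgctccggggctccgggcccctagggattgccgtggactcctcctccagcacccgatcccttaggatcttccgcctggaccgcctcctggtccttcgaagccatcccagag
Nlgn3: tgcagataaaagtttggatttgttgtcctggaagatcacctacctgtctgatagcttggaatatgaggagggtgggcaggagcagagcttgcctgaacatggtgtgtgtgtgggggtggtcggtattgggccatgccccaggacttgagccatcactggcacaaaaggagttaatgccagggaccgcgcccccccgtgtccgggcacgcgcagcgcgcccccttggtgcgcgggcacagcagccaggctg
The Nlgn2 stretch was the richest in G and C of the 3, at 69.2%, with 20 CG pairs and 3 GC boxes, of which a pair overlaps. The Nlgn1 stretch had 44.4% G and C, 10 CG pairs and 1 E-box, and the Nlgn3 stretch 60.0%, 11 CG pairs and neither motif. Over 33465 rat promoter stretches of the same length the median was 51.2% G and C with 5 CG pairs, 65.5% held an E-box and 30.5% a GC box on either strand. A match is only a run of letters, and which start the cells used was not measured.

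The neurexin members contrasted with each other. Nrxn2 was the most abundant member in every library, at 35.0 FPKM with SFMA, 41.0 with N-SFMA, 49.9 with L-SFMA and 34.0 with NL-SFMA. As measured it was highest on L-SFMA and at about the SFMA level on NL-SFMA. Once the trend with gene length was removed, its log2 differences from SFMA were -0.11 with N-SFMA, -0.04 with L-SFMA and -0.71 with NL-SFMA. Against SFMA, the ratio of its CPM, the count scaled by the library's total alone, was 1.17 on N-SFMA (95% counting interval 1.12 to 1.22), 1.42 on L-SFMA (1.37 to 1.48) and 0.971 on NL-SFMA (0.929 to 1.01). Nrxn3 was at 1.04, 2.01, 1.94 and 3.48 FPKM in the same order of libraries. Its SFMA level was the lowest, N-SFMA and L-SFMA were alike, and NL-SFMA was the highest. The CPM ratio of Nrxn3 against SFMA was 1.94 on N-SFMA (1.60 to 2.35), 1.86 on L-SFMA (1.54 to 2.26) and 3.35 on NL-SFMA (2.81 to 4.01). Per length, Nrxn2 was therefore 33.7 times as abundant as Nrxn3 on SFMA (29.0 to 39.5) and 9.76 times on NL-SFMA (8.87 to 10.8). These intervals are exact (Clopper-Pearson) and cover counting error only.

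Of the summed FPKM of Nrxn2 and Nrxn3, Nrxn2 made up 97.1% with SFMA, 95.3% with N-SFMA, 96.3% with L-SFMA and 90.7% with NL-SFMA.

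All 3 neuroligins, the postsynaptic partners of neurexins, were higher on each modified hydrogel than on SFMA, by less than 2-fold on the log2(FPKM + 1) scale. Nlgn1, which is found mainly at excitatory synapses, was at 2.69 FPKM with SFMA, 3.61 with N-SFMA, 3.58 with L-SFMA and 6.04 on NL-SFMA. NL-SFMA stood above the others, and N-SFMA and L-SFMA did not differ beyond counting error, with a CPM ratio of 0.992 between them (0.820 to 1.20). Nlgn1 on NL-SFMA was 2.24 times its SFMA level in CPM (1.87 to 2.70). Nlgn2, the neuroligin of inhibitory synapses, was at 11.7, 14.7, 17.1 and 16.9 FPKM, so that L-SFMA and NL-SFMA were the high pair. Its CPM ratio against SFMA was 1.25 on N-SFMA (1.15 to 1.37), 1.46 on L-SFMA (1.34 to 1.59) and 1.44 on NL-SFMA (1.32 to 1.57). Nlgn3, which occurs at both kinds of synapse, was at 16.7, 22.4, 29.0 and 28.9 FPKM. It had the same order as Nlgn2, with ratios to SFMA of 1.34 (1.23 to 1.46), 1.73 (1.60 to 1.88) and 1.72 (1.58 to 1.88). Between NL-SFMA and L-SFMA the ratio was 0.986 for Nlgn2 (0.909 to 1.07) and 0.996 for Nlgn3 (0.924 to 1.07), and 1.69 for Nlgn1 (1.42 to 2.00). The level of Nlgn1 relative to Nlgn2, per length, was 0.230 with SFMA (0.195 to 0.269), 0.245 with N-SFMA (0.211 to 0.284), 0.209 with L-SFMA (0.181 to 0.241) and 0.357 with NL-SFMA (0.315 to 0.404). Nlgn3 made up most of the neuroligin FPKM in every library, from 53.7% to 58.3%.

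Among the latrophilins, Adgrl1 and Adgrl3 were higher on all 3 modified hydrogels, although Adgrl1 on NL-SFMA came to a log2 difference of -0.0044 once the trend with gene length was removed, and Adgrl2 was hardly counted. Adgrl1 was at 12.0 FPKM with SFMA, 18.0 with N-SFMA, 27.4 with L-SFMA and 25.4 on NL-SFMA. The libraries whose hydrogel name holds an L were the high pair, with CPM ratios to SFMA of 2.29 (2.18 to 2.40) and 2.12 (2.02 to 2.23), against 1.51 on N-SFMA (1.43 to 1.59). Adgrl3 was at 2.40, 4.07, 4.74 and 7.38 FPKM, in rising order from SFMA to NL-SFMA. Its ratios to SFMA were 1.70 (1.48 to 1.95), 1.98 (1.74 to 2.26) and 3.08 (2.72 to 3.49). Adgrl1 was 4.99 times as abundant per length as Adgrl3 on SFMA (4.47 to 5.59), 5.78 times on L-SFMA (5.32 to 6.27) and 3.44 times on NL-SFMA (3.20 to 3.70). The row of Adgrl2 (ENSRNOG00000065347) held 1, 1, 0 and 3 reads. These are at or under the floor of 3 counts, 0.0267 to 0.0330 FPKM for this gene model, so no fold is given. Whether reads of Adgrl2 were counted under another identifier could not be checked, so its absence from the cells cannot be read from this row.

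Tenm4, a teneurin and so a ligand of latrophilins, had the largest difference of the members in each comparison with SFMA on the log2(FPKM + 1) scale. As a CPM ratio Nrxn3 was larger on N-SFMA and NL-SFMA. With the length trend removed Nlgn3 was larger there (0.41 against 0.37 for Tenm4 with N, 0.83 against 0.76 with both letters). Nlgn1 (0.80) was then also larger on NL-SFMA. Tenm4 was at 5.39 FPKM with SFMA, 9.79 with N-SFMA, 16.2 with L-SFMA and 17.9 on NL-SFMA. Both libraries with an L in the name were well above the other pair. Its CPM ratio against SFMA was 1.82 on N-SFMA (1.67 to 1.98), 3.02 on L-SFMA (2.78 to 3.27) and 3.32 on NL-SFMA (3.06 to 3.60), and NL-SFMA against L-SFMA gave 1.10 (1.04 to 1.17). Within the teneurins its share of the summed FPKM stayed between 44.9% and 49.3%, because Tenm2 (2.93, 5.30, 8.34 and 9.55 FPKM) and Tenm3 (3.60, 6.35, 8.13 and 11.0 FPKM) were higher on the same hydrogels.

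**Figure D1:**
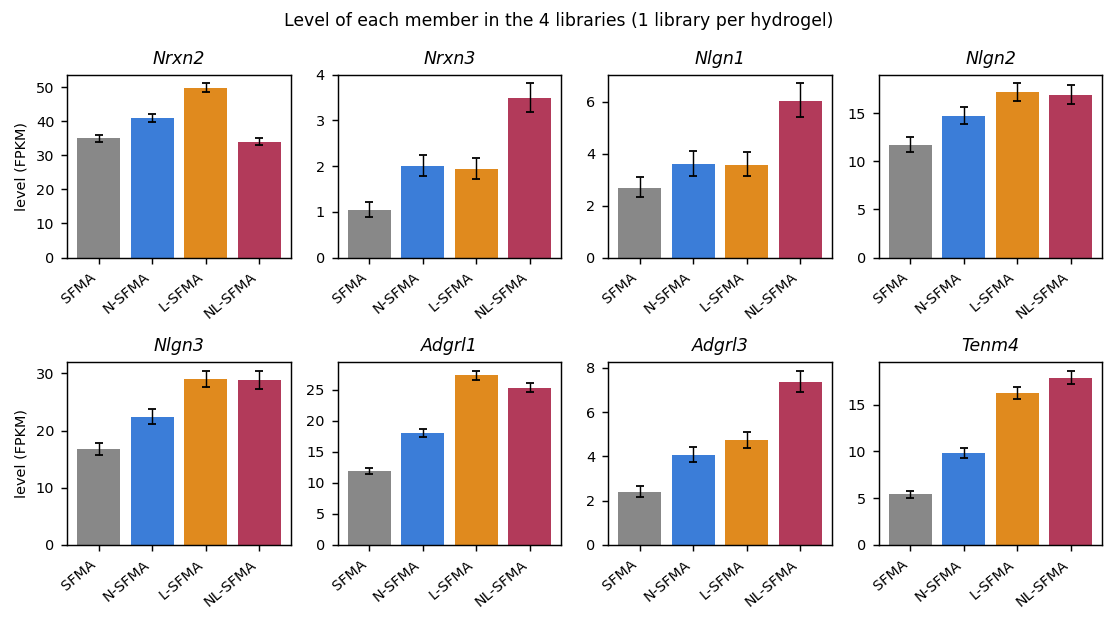
Level in FPKM (vertical axis, from 0, own scale per gene) of the 8 members above 1 FPKM in the 4 libraries, 1 bar per library, with error bars for the exact Poisson 95% counting interval. Nrxn3, Nlgn1 and Adgrl3 are highest on NL-SFMA, at 3.48, 6.04 and 7.38 FPKM, while Nrxn2 is highest on L-SFMA, at 49.9 FPKM.

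The order of levels changed little. Nrxn2, Nlgn3 and Adgrl1 held the first 3 places in every library, and Nrxn3 and Adgrl2 the last. On SFMA the counting intervals of Adgrl1 and Nlgn2 overlapped, as did those of Nlgn1 and Adgrl3. On N-SFMA this was so for Adgrl3 and Nlgn1, and on L-SFMA for Nlgn3 with Adgrl1 and for Nlgn2 with Tenm4. On NL-SFMA only Tenm4 and Nlgn2, which had exchanged places, had overlapping intervals among neighbours.

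**Figure D2:**
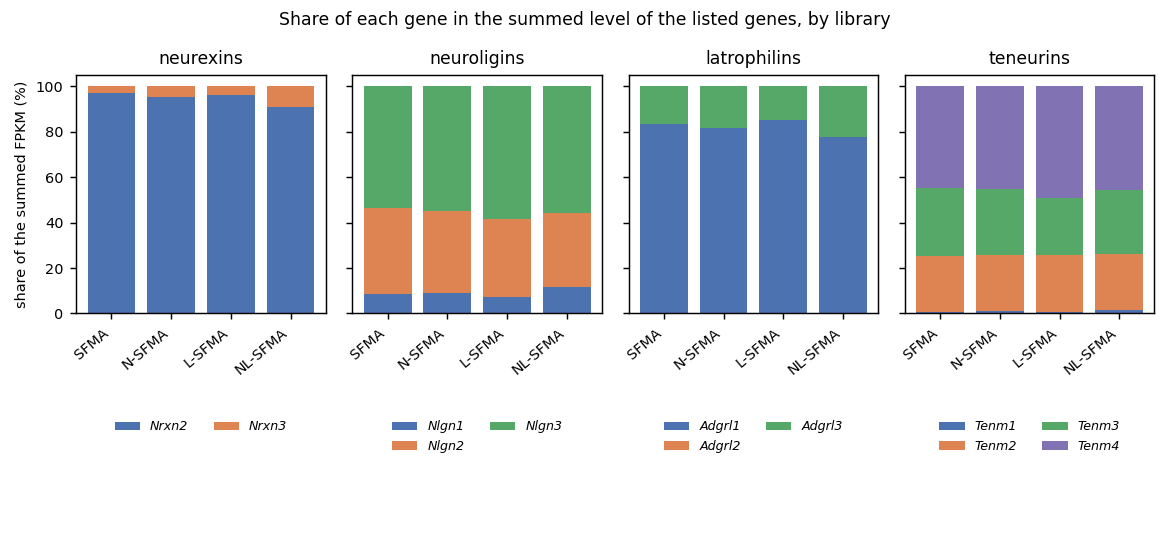
Share of each gene in the summed FPKM of the genes in its panel (vertical axis, percent), with panels for neurexin members, neuroligins, latrophilins and teneurins, 1 stacked bar per library. The shares of Nrxn2 and Adgrl1 are lowest on NL-SFMA, at 90.7% and 77.4%, while that of Tenm4 lies between 44.9% and 49.3%. The latrophilin shares take the Adgrl2 row as it was counted.

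For the comparison across all genes, a difference is the log2 ratio of FPKM with 1 FPKM added to each value, which understates the ratio of low genes, and the 12394 genes with at least 1 FPKM in some library were tested. Of the 9 members 8 passed this filter, all but Adgrl2. On N-SFMA against SFMA the members lay between 0.22 for Nrxn2 and 0.76 for Tenm4, with a median of 0.48 against -0.02 over all tested genes. None was at least 2-fold higher, as 0.855% of all tested genes were, and none was at least 2-fold lower (2.65% of all tested genes). The whole counting interval of the CPM ratio lay above 1 for 8 of 8 members, and for 32.4% of tested genes.

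On L-SFMA against SFMA the median was 0.64 against 0.05 over all tested genes, from 0.31 for Nlgn1 to 1.43 for Tenm4. Adgrl1 (1.13) and Tenm4 were at least 2-fold higher, 2 of 8, where 3.32% of all tested genes were, and none was 2-fold lower (3.04%). All 8 counting intervals lay above 1, as did 40.6% over the tested genes.

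On NL-SFMA against SFMA the median was 0.98 against -0.10 over all tested genes, from -0.04 for Nrxn2 to 1.56 for Tenm4. At least 2-fold higher were Nrxn3 (1.14), Adgrl1 (1.02), Adgrl3 (1.30) and Tenm4, 4 of 8, where 10.1% of all tested genes were, and none was 2-fold lower (15.1%). Nlgn1 (0.93) lay just short of that threshold and Adgrl1 just past it. Nrxn2 changes sign under 3 of the other scalings tried, and its counting interval spans 1. The remaining 7 intervals lay above 1, against 37.1% of tested genes. The 3 comparisons share the SFMA library, so they are not independent of each other.

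Gene model length went with these differences. The tested members have models of 3184 to 12247 bases. The 5510 tested genes of such lengths had medians of 0.16, 0.30 and 0.31 on N-SFMA, L-SFMA and NL-SFMA against SFMA. Of these 5510 genes 44, 256 and 884 were at least 2-fold higher, in the same order. At least 2-fold lower were 0.599%, 0.454% and 3.14% of them, against 2.65%, 3.04% and 15.1% of all tested genes. Beside genes of such lengths, the absence of 2-fold lower members is therefore less marked than beside all tested genes. With the trend of the difference on length removed, the members' medians were 0.18, 0.19 and 0.41, and none was 2-fold higher in any of the 3 comparisons, where 1.07%, 2.31% and 8.07% of all tested genes were. The neuroligins moved least under this removal on NL-SFMA, to 0.80 for Nlgn1, 0.22 for Nlgn2 and 0.83 for Nlgn3. Tenm4 was then at 0.76, Adgrl3 at 0.54 and Nrxn3 at 0.28. Adgrl1, which has the longest model, came to -0.0044, and Nrxn2 to -0.71. On the single-letter hydrogels Nrxn2 (-0.11 with N and -0.04 with L) and Nrxn3 with L (-0.14) were then below 0. What part RNA fragment length or quality had in the length trend was not tested.

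**Figure D3:**
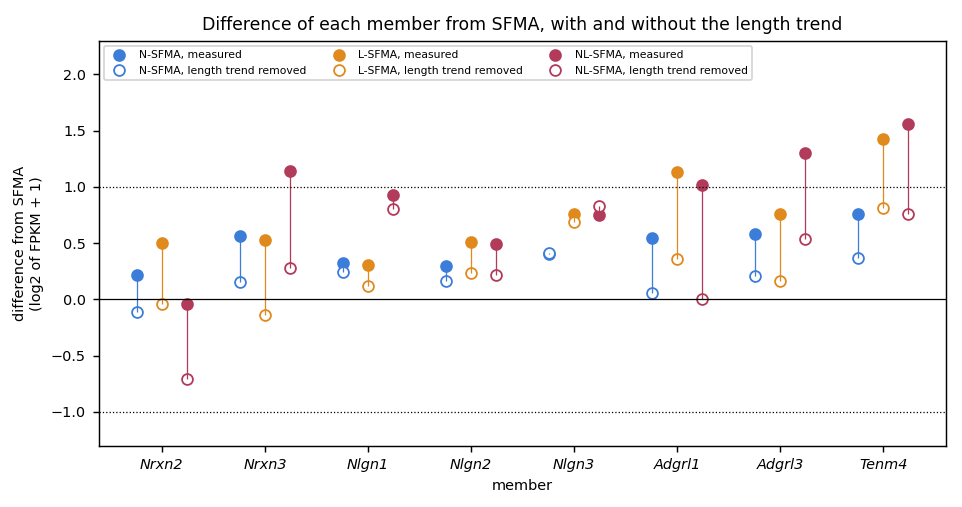
Difference of each tested member from SFMA on the log2(FPKM + 1) scale (vertical axis), as measured (filled) and with the length trend removed (open), for N-SFMA, L-SFMA and NL-SFMA. Dotted lines mark 2-fold. The filled points of Adgrl1 and Tenm4 pass the upper line on L-SFMA and those of Nrxn3, Adgrl1, Adgrl3 and Tenm4 on NL-SFMA, and no open point does.

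**Figure D4:**
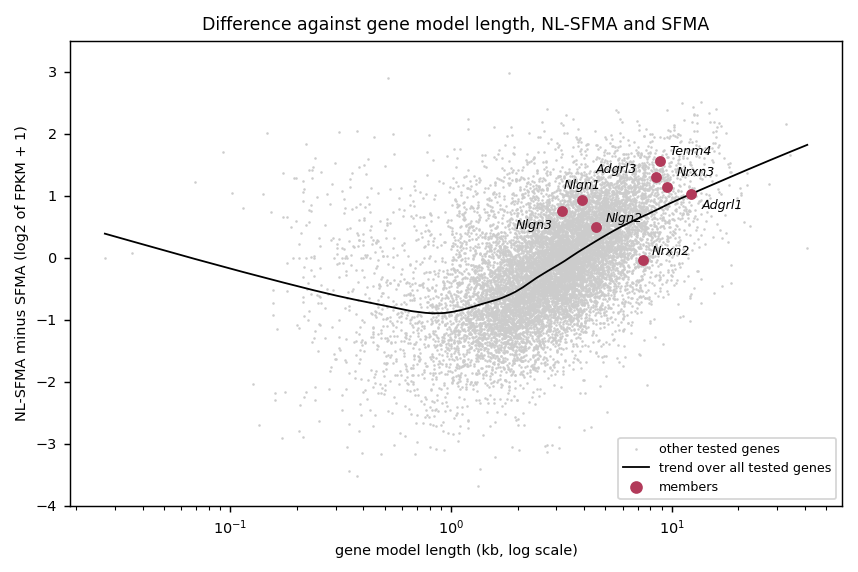
Difference between NL-SFMA and SFMA on the log2(FPKM + 1) scale (vertical axis) against gene model length in kilobases (horizontal log axis) for 12394 tested genes, with the trend as a line and the members in red. Nlgn1 and Nlgn3 lie above the line by 0.80 and 0.83, Adgrl1 on it, and Nrxn2 below it by 0.71.

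The members also differed in how NL-SFMA compared with each single-letter library. From N-SFMA to NL-SFMA, Tenm4 was higher by 0.81, Adgrl3 by 0.73, Nlgn1 by 0.61, Nrxn3 by 0.57, Adgrl1 by 0.47, Nlgn3 by 0.35 and Nlgn2 by 0.19 on the log2 scale, while Nrxn2 was at -0.26, and Adgrl1 at -0.05 with the length trend removed. None was 2-fold higher (2.15% of tested genes) or lower (5.58%). From L-SFMA to NL-SFMA the members fell into 3 sets. Nlgn1 (0.62), Nrxn3 (0.61) and Adgrl3 (0.55) were higher, Tenm4 (0.13), Nlgn3 (-0.01), Nlgn2 (-0.02) and Adgrl1 (-0.11) were close to 0, and Nrxn2 was lower (-0.54). The signs of Nlgn2 and Nlgn3 turn under all 4 other library scalings tried, that of Adgrl1 under 3 of them, and that of Tenm4 with the length trend removed (-0.05). With that trend removed Adgrl1 was at -0.35, about as far from 0 as Adgrl3 (0.38) and Nrxn3 (0.42), so that this grouping holds only as measured. None was 2-fold higher (0.871% of tested genes) or lower (6.87%). The first set holds the least abundant tested neurexin, neuroligin and latrophilin member of these libraries. L-SFMA against N-SFMA gave 0.68 for Tenm4, 0.58 for Adgrl1, 0.36 for Nlgn3, 0.28 for Nrxn2 and 0.21 for Nlgn2. None was 2-fold higher (0.379% of tested genes) or lower (0.250%). Adgrl3 was at 0.18, or -0.04 with the length trend removed, and Nlgn1 (-0.01) and Nrxn3 (-0.04) had counting intervals of the CPM ratio that span 1.

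Read as a pair of factors, assuming that a letter means the same in both names that hold it, the departure of NL-SFMA from the sum of the N and L differences was -0.76 for Nrxn2, -0.66 for Adgrl1, -0.63 for Tenm4, -0.41 for Nlgn3 and -0.32 for Nlgn2. It was 0.30 for Nlgn1, 0.05 for Nrxn3 and -0.03 for Adgrl3, and -0.13 in the median of all tested genes. With the length trend removed Adgrl3 turned to 0.18, Nrxn3 was at 0.27 and Nlgn1 at 0.45, Nlgn2 at -0.17, Nlgn3 at -0.27, Tenm4 at -0.41, Adgrl1 at -0.42 and Nrxn2 at -0.57, with a median of 0.00 over all tested genes. For Tenm4 the N and L differences summed to 2.19, and 1.56 was measured. No library is left over to test these departures.

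The genes around these molecules were taken from lists by role, in which 77 genes that are not members were found and 69 tested. On NL-SFMA against SFMA their median was 0.50, with 14 at least 2-fold higher and 3 lower, where 10.1% and 15.1% of all tested genes were. The median was 0.32 for N-SFMA, where 0 genes were higher and 1 was lower (0.855% and 2.65% of all tested genes), and 0.47 for L-SFMA, where 5 were higher and 1 lower (3.32% and 3.04%). With the length trend removed 5 of 69 were 2-fold higher and 4 lower on NL-SFMA. These counts are close to the 8.07% and 7.42% of all tested genes.

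The ligands of latrophilins had the highest median of the 10 lists as measured, but not on N-SFMA and NL-SFMA with the length trend removed. Of the 6 tested teneurins and FLRT genes, Tenm4 included, 5 were at least 2-fold higher on NL-SFMA, 3 on L-SFMA and 0 on N-SFMA. Of all tested genes 10.1%, 3.32% and 0.855% were, in the same order. The medians of the list were 1.49, 1.12 and 0.68. Flrt2 was at 4.10, 7.05, 8.40 and 14.4 FPKM and Flrt3 at 5.62, 11.4, 11.5 and 18.5 FPKM. These are leucine-rich repeat proteins that bind latrophilins, and both were highest on NL-SFMA. Flrt1, at 2.24, 4.05, 7.06 and 5.34 FPKM, was highest on L-SFMA. With the length trend removed the median of this list on NL-SFMA was 0.69, against 0.80 for neuroligins and 0.72 for splicing and shedding factors. Then 1 of 6, Flrt3 (1.19), was 2-fold higher, where 8.07% of all tested genes were.

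Other neurexin ligands did not move together, with a median of 0.23 on NL-SFMA over 14 tested genes. Of these 2 were 2-fold higher and 0 lower, where 10.1% and 15.1% of all tested genes were. Clstn2, a calsyntenin, was at 4.98, 10.1, 14.9 and 21.6 FPKM, and its difference on NL-SFMA was 1.92, or 1.56 with the length trend removed. Its relatives Clstn1 (76.0, 103, 114 and 75.3 FPKM) and Clstn3 (8.31, 10.5, 11.2 and 8.98 FPKM), chosen after their values were seen, had the L-SFMA peak of Nrxn2. Lrrtm2, a postsynaptic leucine-rich repeat ligand of neurexins, was at 4.43, 5.28, 5.65 and 10.1 FPKM, and the secreted neurexophilin Nxph4 at 74.6, 90.1, 92.8 and 49.1 FPKM. Of 4 proteins that bind neuroligins from outside, Mdga1, which blocks neurexin binding, was at 32.3, 52.9, 79.9 and 60.7 FPKM. Sparcl1, the glial bridging protein hevin, was at 12.9, 4.33, 5.73 and 3.12 FPKM and was at least 2-fold lower on all 3 modified hydrogels. So were 4, 3 and 4 of the 10 radial glia markers on N-SFMA, L-SFMA and NL-SFMA. Of the 7 tested astrocyte markers 0, 0 and 2 were, and of all tested genes 2.65%, 3.04% and 15.1%. Whether the level of Sparcl1 goes with that of any cell type was not tested. Thbs1, a thrombospondin, was at 5.81, 5.31, 4.92 and 11.0 FPKM.

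Scaffolds were mixed. Of 11 tested presynaptic scaffold genes 2 were 2-fold higher on NL-SFMA and 1 was lower, against 10.1% and 15.1% over all tested genes, with a median of 0.35. The liprin Ppfia2 was at 4.48, 7.15, 8.76 and 11.2 FPKM, Lin7c at 33.4, 40.9, 40.2 and 72.1 FPKM and Lin7b at 3.16, 2.51, 3.06 and 0.831 FPKM. Of 17 tested postsynaptic scaffold genes 4 were 2-fold higher and 1 lower there, against the same 10.1% and 15.1%. Their median of 0.51 came to -0.14 with the length trend removed. Then 1 was 2-fold higher and 2 were lower, where 8.07% and 7.42% of all tested genes were. Homer1, which links glutamate receptors to other scaffolds, was at 4.90, 6.97, 8.40 and 14.7 FPKM and Dlgap1 at 2.57, 4.77, 5.15 and 7.65 FPKM. Dlgap3 went the other way, at 9.44, 6.46, 8.67 and 3.47 FPKM.

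Of 12 other tested synaptic organizers 1 was 2-fold higher on NL-SFMA, a count close to the 10.1% of all tested genes. That organizer was the receptor phosphatase Ptprd (2.20, 4.66, 6.67 and 9.73 FPKM), and the list median was 0.57. Slitrk4 differed by 0.87 and Slitrk2 by 0.80, at no more than 2.55 FPKM in any library. Among 6 genes for splicing and shedding, 1 was 2-fold higher on NL-SFMA, the neuronal splicing factor Nova1 at 3.51, 6.90, 5.72 and 10.3 FPKM. Its relative Nova2 was at 28.5, 39.4, 38.5 and 38.4 FPKM, and the shedding protease Adam10 at 12.9, 19.3, 21.1 and 25.0 FPKM.

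**Figure D5:**
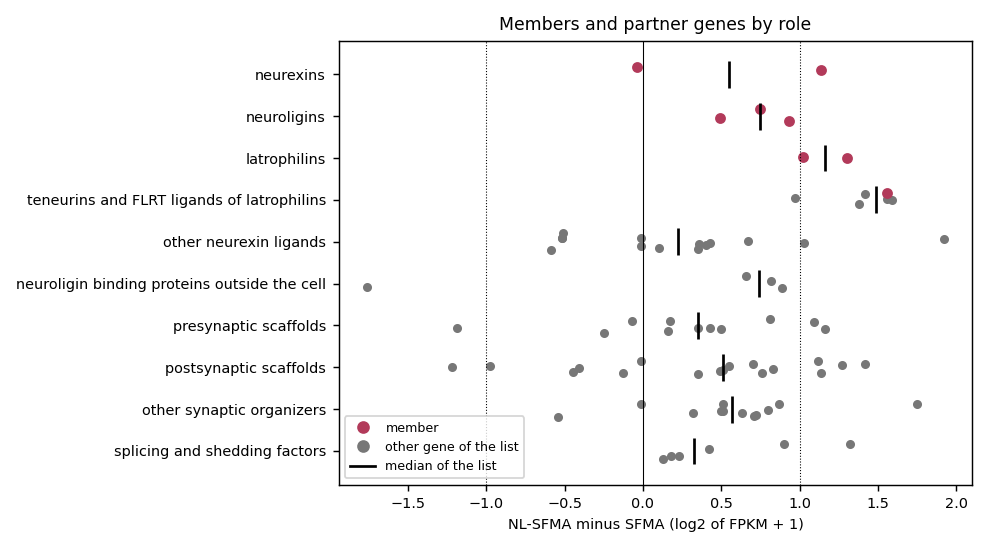
Difference between NL-SFMA and SFMA on the log2(FPKM + 1) scale (horizontal axis) for the tested genes of 10 lists by role, with members in red, other genes in grey, a bar at each list's median and dotted lines at 2-fold. The latrophilin ligands have a median of 1.49, and the other neurexin ligands spread on both sides of 0 around 0.23.

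Likeness of pattern was measured as the distance between the 3 differences against SFMA, over 4 libraries, among 8980 named genes of at least 5 FPKM in some library. Nearest to the median profile of the members were Cdk12 (distance 0.026), Wdr44 (0.029), Rbfox1 (0.036), Srgap2 (0.042) and LOC120102351 (0.044). Nearest to Tenm4 were Myt1l (0.141), Crebbp (0.157) and Epha5 (0.159), and to Adgrl3 Atrnl1 (0.040), Fgd4 (0.041) and Sgip1 (0.042). Nearest to Nrxn3 were Tp53inp1 (0.044), Prkaa1 (0.046) and Tmem74 (0.055), and to Adgrl1 Trim67 (0.099), Pgam2 (0.109) and Arid1a (0.123). Among the members themselves Nrxn3 and Adgrl3 were the closest pair (0.285), followed by Nlgn2 and Nlgn3 (0.371), and Nrxn2 and Tenm4 were the farthest apart (1.93).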

How the data were processed

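The 4 libraries were made from poly(A) RNA with 1.5 µg of input, per the labels. The authors deposited a read count and an FPKM value for 18755 genes in each. The deposited counts are whole numbers, made with HISAT2 and HTSeq 0.13.5 per the submitters' processing notes. Gene model lengths were not read from an annotation. Each was worked out from the deposited count, the FPKM and the library's summed count, as the median over libraries. This takes FPKM as the count divided by length and by the summed count. The lengths and the length trend therefore rest on the deposited FPKM. The strand setting, filters and the roles of the rat and human builds named were not given in the sources used here, so reads of antisense or overlapping genes cannot be told apart. The members and gene lists were chosen with earlier results of these data known. Differences are on the log2(FPKM + 1) scale, a pseudocount of 1, over genes with at least 1 FPKM in a library, called at 2-fold. Ratios of CPM carry exact 95% intervals, and floors are 3 counts. Without molecular identifiers PCR copies count as reads, so these cover counting error only. The length trend was a lowess curve (fraction 0.3, statsmodels 0.14.6) of the difference on log2 gene model length. Alternatives used TMM factors (edgeR 4.0.16), DESeq2 1.42.0 size factors, upper quartiles and totals without mitochondrially encoded genes. The steps were tested on simulated data. All members are named, and from each list the 3 non-members with the largest difference on NL-SFMA among those of at least 2 FPKM. Other genes are said to be chosen afterwards, or complete a family. The 5 genes nearest to the median profile and the 3 nearest to each member past 2-fold are also named. Lrrtm1 and Gphn were not analysed here, and 1 listed gene is not reported here.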

Additional observations from a re-analysis of the deposited data

How the results depend on the processing

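No paired analysis was possible because each hydrogel has 1 library, and none could be left out in turn. Removing the length trend gave member medians of 0.18, 0.19 and 0.41 for N-SFMA, L-SFMA and NL-SFMA (each against SFMA), with 0 members at least 2-fold higher on L-SFMA and NL-SFMA in place of 2 and 4. Adgrl1 on NL-SFMA against SFMA then turned from 1.02 to -0.0044. The trend is the same for every gene of a given length, and its cause was not tested. A pseudocount of 0.1 FPKM gave medians of 0.81 on L-SFMA and 1.11 on NL-SFMA, and CPM ratios without a pseudocount 0.85 and 1.13, as a smaller pseudocount by its construction shrinks low genes less. Calling at 1.5-fold, a lower threshold, gave 1 of 8 members higher on N-SFMA (7.24% of all tested genes), 4 on L-SFMA (14.8%) and 6 on NL-SFMA (21.6%). The other filters and library scalings left the counts of members within 1.5 times. The medians then ran from 0.40 to 0.51 on N-SFMA, from 0.53 to 0.76 on L-SFMA and from 0.93 to 1.07 on NL-SFMA. Scaling by DESeq2 size factors moved the median of all genes on NL-SFMA against L-SFMA from -0.125 to 0.014. Counting depth limits Nrxn3 and Nlgn1 most, with 174 and 185 reads on SFMA, and leaves Adgrl2 without a fold.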

Other observations

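Of the 77 partner genes found, 8 stayed under 1 FPKM in every library and entered no comparison. Tenm1, a teneurin, held 16 reads with SFMA, 40 with N-SFMA, 35 with L-SFMA and 92 on NL-SFMA, or 0.0866, 0.246, 0.203 and 0.617 FPKM. Its CPM ratio of NL-SFMA to SFMA was 7.12 (95% counting interval 4.16 to 13.0), and it was chosen here after its values were seen. The postsynaptic scaffold gene Dlgap2 held 32, 33, 61 and 73 reads, with a ratio of 2.83 (1.84 to 4.43). The interleukin 1 receptor accessory gene Il1rap held 30, 14, 10 and 11 reads, with a ratio of 0.454 (0.205 to 0.932). For the other 5, Cbln4, C1ql2, Slitrk6, Ntng1 and Il1rapl1, the interval of the ratio spans 1.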
